A study of Mus musculus with 11 samples.

Results

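Replication-dependent histone genes encode the bulk of the proteins that package new DNA, namely the linker histone H1 and the core histones H2A, H2B, H3 and H4. They were taken here as every gene whose symbol in the files begins with HIST1H, HIST2H, HIST3H or HIST4H, in any case, or carries the newer name of such a gene. The rule found 68 genes (81 transcript entries) among the 24037 genes of the files, made up of 6 H1, 18 H2A, 19 H2B, 12 H3 and 13 H4 genes, and all 68 were also listed in a second set of files. Where a gene had several transcripts, the 1 with the highest mean level in the 7 gated libraries stood for it.

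The cells were haematopoietic stem cells (HSCs) of the newborn (P0) liver, from mice of strain C57BL/6 and wild-type genotype, sorted as lineage-negative, Sca1-positive, cKit-positive, CD150-positive and CD48-negative. No group carried a transgene or received a treatment in the labels. Libraries were made by Smart-seq2, a full-length cDNA method for small inputs that primes on poly(A), from 100 to 200 cells each. Forward scatter area (FSC-A), a cytometer reading often used as a proxy for cell size, split the cells of 7 libraries into FSC-A High (n = 4) and FSC-A Low (n = 3), and 4 further libraries came from HSCs with no scatter gate named (unfractionated). Whether libraries represent different animals is not in the labels, and the p-values therefore reflect the spread of these samples alone, part of which may be technical.

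Genes of this family lie mostly in clusters, as a rule have no introns and are transcribed mainly while DNA is copied. Their messages typically end without a poly(A) tail, at a short stem-loop that the stem-loop binding protein Slbp holds, and are degraded when replication stops. A method that primes on poly(A) reads such messages only where they carry a tail or a stretch of A that primes inside them, so the values below are levels of histone RNA captured in this way and need not follow total histone RNA. In bulk libraries, fewer cells expressing a gene and less RNA per cell cannot be told apart.

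The stem-loop is the feature that sets this family apart from other messages, and the following 3′ untranslated region (UTR) sites show its forms by class. Capitals mark the 6 bases on each side that can pair as a stem, and lower case marks the 4 loop bases. They were read from GENCODE M21 transcripts on GRCm38.
Hist1h2ae (H2A), chr13:23570668-23570683, minus strand: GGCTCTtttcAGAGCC
Hist2h2ac (H2A), chr3:96220418-96220433, minus strand: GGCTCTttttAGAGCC
Hist1h2bb (H2B), chr13:23747203-23747218, plus strand: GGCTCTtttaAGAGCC
Hist1h3g (H3), chr13:23535889-23535904, plus strand: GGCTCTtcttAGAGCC
Hist1h4d (H4), chr13:23581950-23581965, plus strand: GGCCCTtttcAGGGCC
Hist1h4i (H4), chr13:22040966-22040981, minus strand: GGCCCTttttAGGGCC
Hist1h4j (H4), chr13:21735437-21735452, plus strand: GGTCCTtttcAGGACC

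The pattern searched was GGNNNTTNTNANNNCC, 16 bases long, on the transcript strand, with at least 5 of the 6 stem pairs. It was present in 46 of the 52 histone genes with an annotated 3′ UTR of at least 30 bases, with all 6 pairs in each of the 46, and began 22 to 59 bases after the stop codon. Among 50908 other coding transcripts with such a UTR, 14 (0.0275%) held it in the first 100 bases. Stems divided by class. All 34 stems of H1, H2A, H2B and H3 genes began GGCT, whereas of the 12 H4 stems 10 began GGCC and 2 began GGTC. The 6 genes with a UTR of that length and no match were Hist1h1a, Hist1h2bc, Hist2h2be, Hist1h2bq, Hist1h2br and Hist2h3b. The other 16 genes have no annotated 3′ UTR of 30 bases, Hist1h1b among them, and could not be searched. A polyadenylation signal (AATAAA or ATTAAA in the last 40 bases of an annotated transcript, searched where its 3′ UTR exceeds 100 bases) was found in 16 of the 68 genes, and 13 of these also have the stem-loop.

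Promoters are shown for the genes with the highest captured level of H2A (Hist1h2ae) and of H4 (Hist1h4d) and for the H1 gene with the largest difference (Hist1h1b). The windows run from 250 bases before to 50 after the annotated start, from RefSeq on GRCm38.p6, and capitals mark matches to the motifs named next.
Hist1h2ae, chr13:23571171-23571470, minus strand: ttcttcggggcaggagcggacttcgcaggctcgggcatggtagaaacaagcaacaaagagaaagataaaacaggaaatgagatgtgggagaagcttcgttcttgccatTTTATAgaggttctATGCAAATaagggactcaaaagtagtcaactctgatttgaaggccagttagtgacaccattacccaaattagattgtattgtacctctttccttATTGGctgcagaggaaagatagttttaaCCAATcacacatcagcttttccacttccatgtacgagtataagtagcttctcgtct
Hist1h4d, chr13:23581318-23581617, plus strand: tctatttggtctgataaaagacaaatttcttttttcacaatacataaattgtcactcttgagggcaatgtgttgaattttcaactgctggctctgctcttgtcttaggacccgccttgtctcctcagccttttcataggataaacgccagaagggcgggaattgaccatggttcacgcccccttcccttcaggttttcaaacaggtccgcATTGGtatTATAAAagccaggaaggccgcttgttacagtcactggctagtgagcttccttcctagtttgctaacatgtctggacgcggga
Hist1h1b, chr13:21780576-21780875, minus strand: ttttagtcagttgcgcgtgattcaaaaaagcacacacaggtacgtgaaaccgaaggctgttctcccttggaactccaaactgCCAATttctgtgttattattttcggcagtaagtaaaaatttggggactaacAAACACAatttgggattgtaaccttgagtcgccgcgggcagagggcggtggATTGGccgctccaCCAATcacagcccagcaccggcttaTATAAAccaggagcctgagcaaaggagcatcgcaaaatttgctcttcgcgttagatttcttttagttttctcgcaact

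The motifs were CCAAT, the TATA motif TATAAA, the octamer ATTTGCAT, the H1 box AAACACA and the E2F site TTTGGCGC, each searched on both strands, and matches of different motifs could overlap. RefSeq gave a window for 62 of the 68 genes and 32851 windows in all. CCAAT occurred in all 6 H1, all 18 H2A, all 16 H2B and all 10 H3 windows and in 3 of 12 H4 windows, against 37.4% of all windows. TATAAA occurred in 4 of 6 H1, 11 of 18 H2A, 8 of 16 H2B, 4 of 10 H3 and 8 of 12 H4 windows, against 13.6% of all. The octamer was found in 7 of 18 H2A and 7 of 16 H2B windows and in no window of the other classes, against 1.74% of all. AAACACA was in 5 of 6 H1, 2 of 18 H2A and 2 of 16 H2B windows and in no H3 or H4 window, against 7.18% of all. Windows of neighbouring H2A and H2B genes can overlap. Some sites are therefore counted in both classes, such as the octamer of Hist1h2ae and Hist1h2bg. The E2F letters were in none of the histone windows and in 0.514% of all windows. These matches describe letters in a window, not bound sites.

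In the gated libraries, histone RNA was concentrated in few genes. Values are RPKM, reads per kilobase of transcript scaled for depth, a unit inferred from the deposited values. Of the 68 genes, 8 averaged at least 10 RPKM, 22 averaged 1 to 10 and 38 were under 1. Hist1h1t and Hist1h4b were at 0 in all 7 libraries. From the step between low values, the libraries held about 65.7 M to 98.2 M reads. At that depth 3 reads, taken as the limit that a count of 0 allows, correspond to 0.0416 to 0.0621 RPKM for Hist1h1t and 0.0679 to 0.101 RPKM for Hist1h4b. These limits cover counting error only.

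The summed RPKM over all 68 genes was 656, 909, 826 and 638 in the FSC-A High libraries and 183, 155 and 152 in the FSC-A Low libraries. The means were 757 ± 132 (SD, n = 4) and 163 ± 17.1 (SD, n = 3), a ratio of 4.64. No library of one group reached the range of the other. A single H2A gene, Hist1h2ae, supplied 45.1% of the High sum and 20.4% of the Low sum. With the H4 gene Hist1h4d added, the shares were 62.2% and 28.6%.

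The classes did not differ between the gates by the same ratio. The summed level of H4 was 157 ± 45.5 RPKM in High and 22.1 ± 4.30 in Low, a ratio of 7.11. H3 stood at 17.6 ± 7.01 and 2.84 ± 2.46 RPKM (6.20), and H2A at 426 ± 87.5 and 71.8 ± 3.53 RPKM (5.94). H1 came to 123.3 ± 20.1 and 36.8 ± 17.9 RPKM (3.35). H2B was the exception, with 33.3 ± 5.75 RPKM in High and 29.8 ± 4.51 in Low, a ratio of 1.12. Hist3h2ba made up 60.5% of the H2B sum in High and 42.4% in Low. Hist1h2bc, which was lower in High, averaged 3.64 RPKM in High and 11.5 in Low. The H2B ratio therefore rests largely on these genes and need not hold for the other H2B genes. The H2B libraries overlapped, from 29.2 to 41.8 RPKM in High and 24.6 to 32.6 in Low, while those of the other 4 classes did not. H2A and H2B enter each nucleosome in equal number, whereas their captured levels were unequal. H2B made up 3.38% to 6.55% of the histone sum in the High libraries and 16.2% to 21.0% in the Low libraries. These sums are descriptions without a test.

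**Figure D1:**
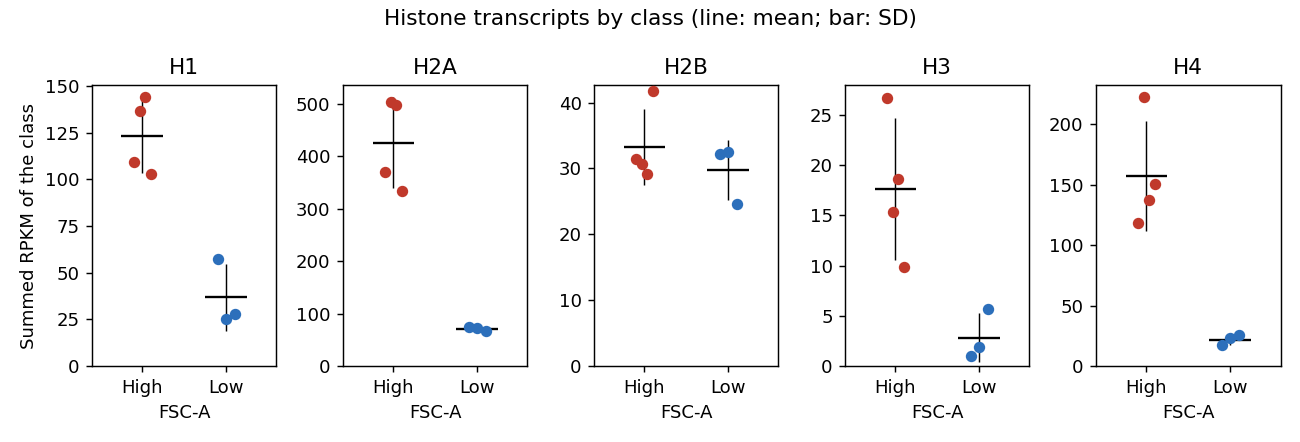
Summed RPKM of the genes of each class in each gated library (points), with the mean (line) and SD (bar) of FSC-A High (4 libraries) and FSC-A Low (3 libraries). The y axes differ between panels and start at 0. H1, H2A, H3 and H4 separate the gates, and H2B overlaps.

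Single genes were tested with limma on log2(RPKM + 1). The test ran over the 10615 genes that reached 1 RPKM in 3 or more of the 7 libraries, and a call required a p below 0.05 after Benjamini-Hochberg adjustment. Of the histone genes, 31 could be tested and 37 could not, the highest of which averaged 0.854 RPKM. Among the 31, 21 were higher in FSC-A High, 1 was lower and 9 were not called, where 15.6% of all tested genes were called higher, 11.7% lower and 27.3% in either direction. The groups did not overlap in 22 genes that were higher and 1 that was lower, against 18.9% and 16.0% of all tested genes. The median log2 difference of the 31 was 1.39, and that of all tested genes was -0.04. Hist1h2ap and Hist1h2ao, both among the 21, are nearly identical copies and are counted separately here.

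The filter touches this count. In 20 of the 31 genes fewer than 3 Low libraries reached 1 RPKM (15 higher, 0 lower), and in 12 no Low library did, so those 12 entered only because they were high in High and had to be higher there. They are Hist1h1d, Hist1h2ab, Hist1h2af, Hist1h2ag, Hist1h2ai, Hist1h2ak, Hist1h2bj, Hist1h2bm, Hist2h2bb, Hist1h3d, Hist1h3g and Hist1h4n, and their calls support nothing by themselves. The remaining 11 genes had at least 1 RPKM in all 3 Low libraries. Of these, 6 were higher, 1 was lower and 4 were not called. Without any filter, 66 histone genes had a value, and 19 were called higher and none lower (8.6% and 5.36% of 15892 genes). Mean levels were above those of the other gate in 55 genes for High and in 11 for Low, and 2 genes were at 0 in both. These directions were not counted over all genes, so they cannot be set against a share of them. Of the histone genes, 38 averaged under 1 RPKM. The total of all gene values was 408987 to 439326 RPKM in the High libraries and 333640 to 349551 in the Low libraries. The part of this total in the direction counts was not tested.

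Short messages tended to be higher in High across the whole table. Over 10475 genes the log2 difference and transcript length had a Spearman rho of -0.425, given here as a description across genes of the same 7 libraries. The tested histone transcripts are short, with a median of 473 bases against 2536 for all tested genes. A length-GC adjustment, in which a smooth trend over length and GC content is taken out of each library, left different counts. After it, 11 of the 31 were higher and 1 was lower (9.64% and 8.08% of all genes), with a median of 0.97. The part of length in the result was not otherwise tested.

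The largest log2 difference of a tested histone gene was that of the linker histone gene Hist1h1b. As a class, H1 had a lower ratio (3.35) than H2A, H3 and H4. H1 binds the DNA between nucleosomes and helps to compact chromatin. Hist1h1b (H1.5; chr13:21779832-21780625) measured 39.6, 39.9, 57.8 and 44.6 RPKM in the High libraries and 1.36, 1.72 and 3.96 in the Low libraries. The gates were far apart, with no Low library near the High range, and the log2 difference was 3.86 (SE 0.29, adjusted p = 2.23e-06 by limma). It is also the least ambiguous gene of the leading ones, since 100% of its 50-base windows occur in no other gene.

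Hist1h1e (H1.4; chr13:23621777-23622558) stood at 56.9, 83.3, 67.9 and 44.4 RPKM in High and 15.7, 14.95 and 7.87 in Low. The groups were apart, with a log2 difference of 2.23 (SE 0.27, adjusted p = 9.49e-05 by limma). Hist1h1d (H1.3) was far lower, at 1.57, 3.66, 2.25 and 2.60 RPKM in High and 0.788, 0.446 and 0.0186 in Low. It is 1 of the 12 genes that entered the test through High alone (1.32, adjusted p = 0.0306 by limma without the filter). With the filter its adjusted p was 0.0132, and it lost its call after the length-GC adjustment (0.61, adjusted p = 0.238) and without FSC-A Low replicate 3 (1.10, adjusted p = 0.0548).

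Hist1h1c (H1.2; chr13:23738807-23739531) went the other way in its values. It measured 9.56, 9.39, 14.9 and 11.3 RPKM in High and 39.1, 7.92 and 15.8 in Low. The groups overlapped, because Low replicate 2 lay under every High library while the other 2 Low libraries lay above all of them. The log2 difference was -0.59 (SE 0.41, adjusted p = 0.311 by limma), and without FSC-A Low replicate 2 it became -1.10 with a call as lower (adjusted p = 0.0410). In the Low libraries Hist1h1c was above Hist1h1b in each library, while in the High libraries Hist1h1b was above Hist1h1c in each.

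**Figure D2:**
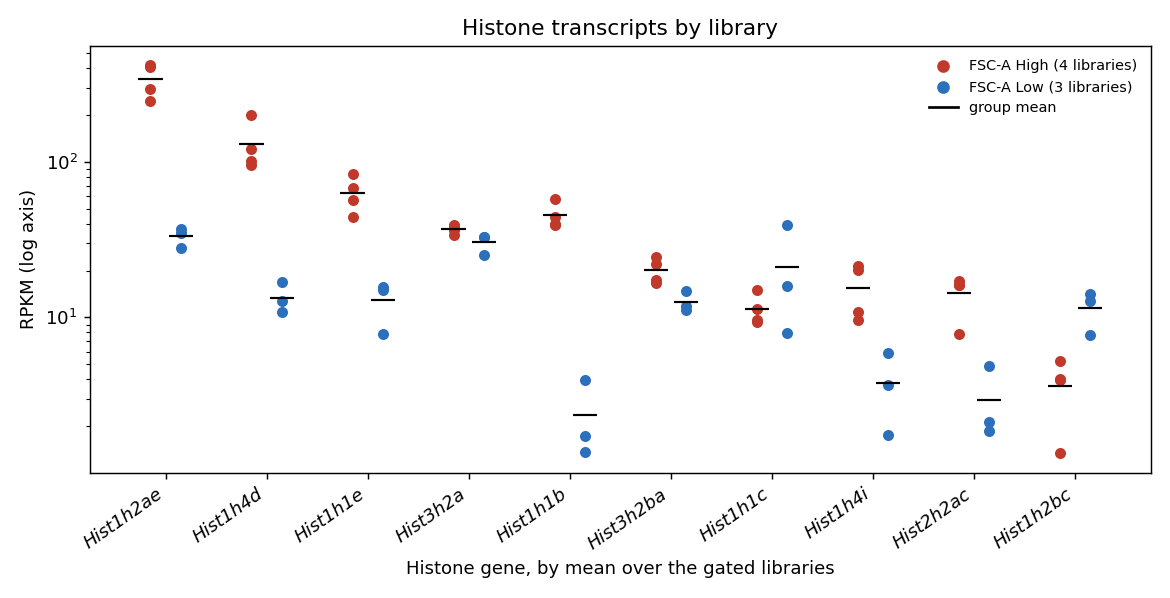
RPKM on a log axis of the 10 histone genes with the highest mean, in each FSC-A High (red, 4) and FSC-A Low (blue, 3) library, with black lines at the group means. Hist1h2ae, Hist1h4d, Hist1h1e, Hist1h1b, Hist1h4i and Hist2h2ac separate upward in High, Hist1h2bc separates downward, and Hist1h1c overlaps. Hist3h2a and Hist3h2ba do not overlap but lie close.

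H2A was the class with the highest level. H2A pairs with H2B in the dimers that flank the core of the nucleosome. Hist1h2ae (chr13:23570663-23571220), whose stem-loop and promoter are printed above, measured 294, 418, 408 and 247 RPKM in High and 37.1, 34.8 and 27.8 in Low. All High libraries were above all Low libraries, and the log2 difference was 3.30 (SE 0.20, adjusted p = 2.30e-07 by limma; 2.69 after the length-GC adjustment). It made up 80.2% of the H2A sum in High and 46.3% in Low.

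Hist3h2a (chr11:58954685-58955192), the next H2A gene by level, differed little. It measured 39.2, 38.9, 33.9 and 36.6 RPKM in High and 25.3, 32.9 and 32.9 in Low. The libraries did not overlap, but the log2 difference of 0.29 (SE 0.18, adjusted p = 0.262 by limma) was not called, and it changed sign when libraries were scaled to their totals (-0.01) and after the length-GC adjustment (-0.40).

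Hist2h2ac (chr3:96220413-96220880), from the smaller cluster on chromosome 3, stood at 7.81, 16.1, 17.2 and 16.2 RPKM in High and 4.87, 2.13 and 1.85 in Low. Its groups were apart, though High replicate 1 and Low replicate 1 were close, and the log2 difference was 1.98 (SE 0.36, adjusted p = 0.00149 by limma). The remaining 8 H2A genes called higher had lower levels.

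Among these, Hist1h2ag, Hist1h2ab and Hist1h2af had no Low library at 1 RPKM, so their p is given from the fit without the filter. Hist1h2ag ranged from 2.93 to 6.23 RPKM in High and from 0 to 0.427 in Low (log2 2.09, adjusted p = 0.00817 by limma). Hist1h2ab lay between 2.83 and 4.04 RPKM in High and 0.0571 and 0.468 in Low (1.84, adjusted p = 0.00462), and Hist1h2af between 3.20 and 3.76 RPKM against 0.152 and 0.653 (1.66, adjusted p = 0.00543). In these genes no High library fell to the level of a Low library. Hist1h2an, with 1 Low library above 1 RPKM, ranged from 4.83 to 9.64 RPKM in High and from 0.0228 to 2.33 in Low (2.05, adjusted p = 0.00299 with the filter), with only 14.2% of its windows unique. The other 4, Hist1h2ai, Hist1h2ap, Hist1h2ak and Hist1h2ao, had log2 differences of 1.54, 1.10, 1.37 and 1.02. Hist1h2ai and Hist1h2ak entered the test through High alone. Without the filter Hist1h2ai kept its call (adjusted p = 0.0147 by limma), while Hist1h2ap (0.0680), Hist1h2ak (0.137) and Hist1h2ao (0.0645) were not called. After the length-GC adjustment Hist1h2ap (adjusted p = 0.114), Hist1h2ak (0.0996) and Hist1h2ao (0.152) were not called. Hist1h2ac, at 0.84, was not called with or without it (adjusted p = 0.0954 without).

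H2B genes had lower levels than the leading H2A genes. Hist3h2ba (chr11:58948911-58949372), the H2B gene with the highest level and a neighbour of Hist3h2a, measured 24.3, 17.5, 16.5 and 22.1 RPKM in High and 11.8, 11.2 and 14.9 in Low. The libraries did not overlap, and the log2 difference of 0.63 (SE 0.23, adjusted p = 0.0635 by limma) missed the threshold.

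Hist1h2bc (chr13:23684199-23692480) was the sole histone gene called lower in FSC-A High. It stood at 1.34, 4.04, 3.96 and 5.24 RPKM in High and 12.8, 14.1 and 7.70 in Low. Every Low library was above every High library, with a log2 difference of -1.48 (SE 0.37, adjusted p = 0.0108 by limma; -1.97 after the length-GC adjustment). Its annotated 3′ UTR of 742 bases lacks the stem-loop. Without the filter on low levels the adjusted p was 0.0573.

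Hist2h2be, a second H2B gene whose annotated 3′ UTR (2192 bases) lacks the stem-loop, measured 0.937, 1.13, 1.00 and 2.67 RPKM in High and 2.89, 4.14 and 0.627 in Low. The groups overlapped, and the difference of -0.44 (SE 0.43, adjusted p = 0.476 by limma) was not called. Hist1h2bj and Hist2h2bb, at under 3 RPKM in every library and tested through High alone, had log2 differences of 1.13 (adjusted p = 0.0290) and 1.19 (adjusted p = 0.0419). Without the filter their adjusted p was 0.0461 and 0.1003. Neither call held after the length-GC adjustment (0.76 and 0.63), and each was lost on leaving out single libraries. Hist1h2bj lost its call without High replicate 1 (adjusted p = 0.0563), 3 (0.0805) or 4 (0.0509) and without Low replicate 2 (0.0947) or 3 (0.0942). Hist2h2bb lost its call without High replicate 2 (0.116), 3 (0.101) or 4 (0.0911) and without Low replicate 1 (0.110) or 3 (0.111).

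Many H2A and H2B genes share a promoter region and run in opposite directions. The annotation gives 13 such pairs, with 163 to 280 bases between the starts, and the H2A gene had the higher mean level in 10 of them. This count is uncertain, because some partners have few unique windows. Among the 10 are Hist1h2ao (6.50%) with Hist1h2bq (0%) and Hist1h2ap (6.93%) with Hist1h2br (0.166%), near-identical pairs counted separately. Hist1h2ah (9.27%), whose H2B partner Hist1h2bk was higher, has the same limit. The largest difference in RPKM was in the pair whose promoter is shown above: Hist1h2ae averaged 209 RPKM over the 7 libraries and Hist1h2bg, 179 bases away, 0.854. Hist1h2bg was at 0.449 RPKM in High and 1.39 in Low, while its partner was at 341.5 and 33.2. Hist3h2a, at 34.2 RPKM, faced the pseudogene Hist3h2bb-ps at 0.0598. Hist1h2bc was above its H2A neighbour, at 7.02 RPKM against 1.65 for Hist1h2ac. Hist2h2be was below Hist2h2ac, at 1.91 against 9.45.

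H3 levels were low in both gates. H3 and H4 form the tetramer at the centre of the nucleosome. Hist1h3d measured 3.05, 3.43, 1.58 and 2.35 RPKM in High and 0, 0.707 and 0 in Low. The groups were apart, but the gene entered the test through High alone. Its log2 difference was 1.56 (SE 0.35), with an adjusted p of 0.0182 by limma without the filter and 0.00542 with it, and after the length-GC adjustment it was 0.93 and not called (adjusted p = 0.0926).

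Hist1h3e stood at 7.26, 1.08, 3.13 and 3.10 RPKM in High and 0, 0.693 and 1.32 in Low. The groups overlapped, since Low replicate 3 was above High replicate 2. Its log2 difference of 1.39 (SE 0.46, adjusted p = 0.0396 by limma) was lost without High replicate 1 (1.05, adjusted p = 0.0987), 3 (adjusted p = 0.0781) or 4 (0.0751) and without Low replicate 1 (0.148) or 2 (0.0694), and after the length-GC adjustment (0.82). Hist2h3b, at 2.29 to 6.86 RPKM in High and 0.194, 0 and 3.59 in Low, was not called (1.43, adjusted p = 0.0518), though it was without Low replicate 3 (2.12, adjusted p = 0.00373). Hist1h3g, at 0 in all Low libraries and in 1 High library, was not called, and no fold is given.

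H4, the most conserved core histone, was again dominated by 1 gene. Hist1h4d (chr13:23581568-23581969) measured 96.2, 199.9, 100.7 and 121.2 RPKM in High and 10.8, 12.7 and 16.8 in Low. The High libraries were all far above the Low libraries, and the log2 difference was 3.13 (SE 0.25, adjusted p = 4.06e-06 by limma). It formed 82.4% of the H4 sum in High and 60.8% in Low, and 89.8% of its windows are unique.

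Hist1h4i (chr13:22040960-22041362) stood at 9.60, 10.9, 20.1 and 21.4 RPKM in High and 1.76, 5.86 and 3.68 in Low. The groups were apart, with a log2 difference of 1.81 (SE 0.38, adjusted p = 0.00374 by limma). Hist1h4c, at 2.47 to 5.71 RPKM against 0 to 1.11 (1.71, adjusted p = 0.00531), and Hist1h4n, at 1.54 to 3.20 against 0.0380 to 0.590 (1.40, adjusted p = 0.00796, or 0.0158 without the filter, since it entered through High alone), were higher in High as well. After the length-GC adjustment neither of the 2 was called (adjusted p = 0.0780 and 0.0640). Hist1h4h did not separate the gates, at 0.795 to 6.24 RPKM in High and 1.06 to 4.45 in Low (0.06, adjusted p = 0.940).

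**Figure D3:**
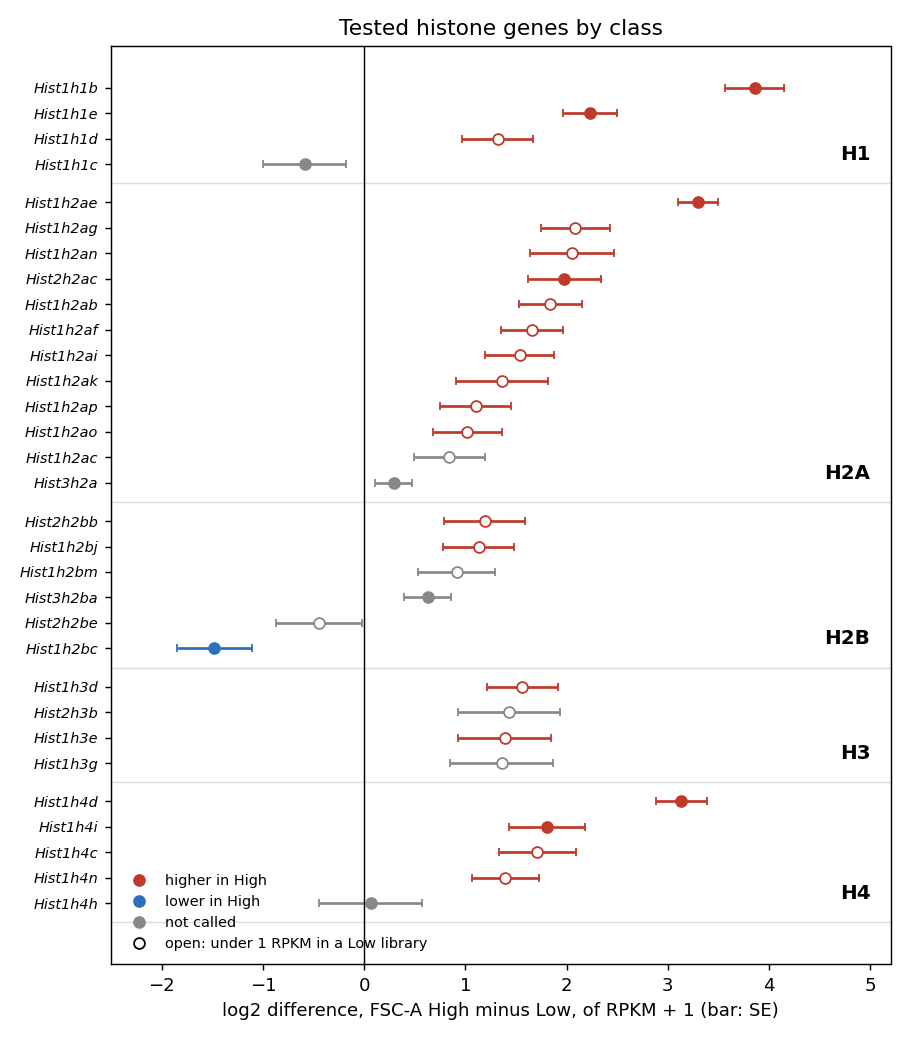
Log2 difference (FSC-A High minus Low, of RPKM + 1) with its SE for the 31 tested histone genes, grouped by class. Red points were called higher, blue lower and grey not called by limma; open points had under 1 RPKM in at least 1 Low library. The 21 red points range from 1.02 to 3.86, and the blue point is Hist1h2bc.

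Of the 23 named histone genes, 10 were called in every alternative setting in which they were tested: Hist1h1b, Hist1h1e, Hist1h2ae, Hist2h2ac, Hist1h2an, Hist1h2ag, Hist1h2ab, Hist1h2af, Hist1h4d and Hist1h4i. Of these, Hist1h2ag, Hist1h2ab and Hist1h2af are among the 12 whose direction the filter fixed in every setting that keeps it. Hist1h1b, Hist2h2ac and Hist1h2an had no Low library at 5 RPKM, so the filter at 5 RPKM fixed their direction in that setting. Of the 6 tested genes with an annotated polyadenylation signal, 2 were higher (Hist1h2ae and Hist1h4i), where 15.6% of all tested genes were, and their log2 differences ran from -0.59 to 3.30.

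Many histone genes share sequence with other genes, some of them nearly identical copies, which limits how reads can be assigned. Over the 68 genes the median share of 50-base windows found in no other gene was 50.4%, with 16 genes under 20% and 14 at 80% or more. By class the median ran from 27.0% in H2A to 98.9% in H1. Shared windows can also lie in genes outside the family, such as Trim17 for Hist3h2a (31.5%), so this share does not measure copies alone. For Hist1h2ae the unique share was 56.8%, and 38.5% of its windows occur in Hist1h2ad, which averaged 0.0673 RPKM. Among the 14 genes at 80% or more, 7 were tested, of which 4 were higher (Hist1h1b, Hist1h1d, Hist1h4d and Hist1h4c) and none lower, against 15.6% and 11.7% of all tested genes. Hist1h1d entered through High alone, and after the length-GC adjustment neither it nor Hist1h4c was called. Values of the single H2A genes with few unique windows, such as Hist1h2ap (6.93%) and Hist1h2ao (6.50%), are uncertain.

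**Figure D4:**
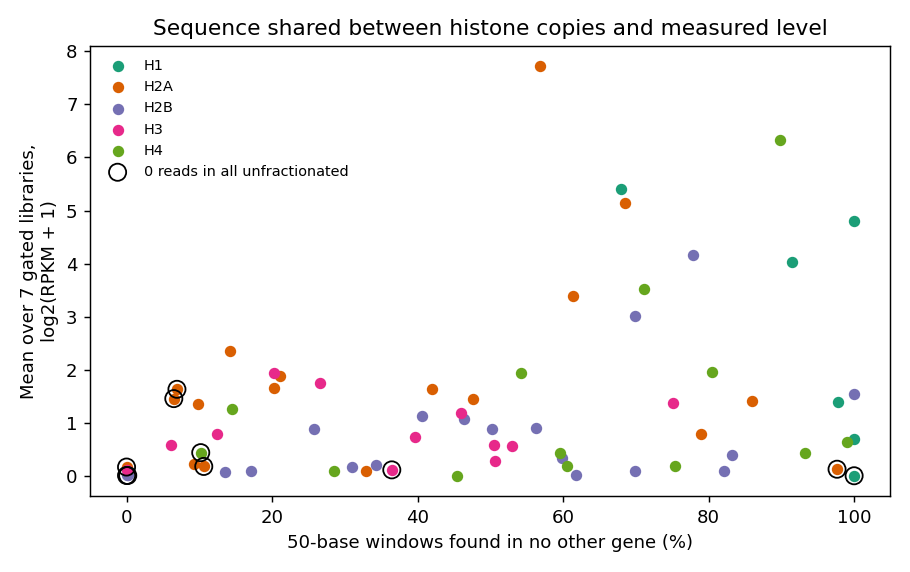
Mean log2(RPKM + 1) over the 7 gated libraries against the percentage of 50-base windows found in no other gene, for each of the 68 histone genes, coloured by class. Circled genes had 0 reads in all 4 unfractionated libraries; of these 10, 7 had under 20% unique windows.

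Unfractionated HSCs gave a second view of levels, in other files and another unit, so they were not compared with the gates. The deposited values were turned back into reads (30889443, 21307178, 27206879 and 29952311 per library). Histone genes together took 466, 766, 674 and 531 CPM (counts scaled to library size), with a mean of 609 ± 136 (SD, n = 4). Replicate 1 had the lowest sum and replicate 2 the highest. RPKM values were computed from the same reads.

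Hist1h2ae and Hist1h4d led with means of 197.1 ± 109 and 197.1 ± 70.9 RPKM (SD, n = 4). Hist1h2ae measured 188, 213, 326 and 60.97 RPKM, and Hist1h4d 106, 229, 271 and 183, so the order of these 2 was not fixed beyond their spread. Hist1h1c, at 125, 169, 114 and 205 RPKM (153 ± 42.0), and Hist3h2a, at 93.4, 92.9, 104 and 139 RPKM (107 ± 21.9), followed. Neighbours among these 4 overlapped in their ranges, and Hist3h2a did not overlap with the next gene.

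Next came Hist1h2bc at 47.9 ± 14.1 RPKM, Hist1h1b at 41.2 ± 28.4, Hist1h1e at 36.3 ± 12.1, Hist3h2ba at 25.2 ± 20.3, Hist1h4i at 25.1 ± 27.1 and Hist1h2ab at 18.0 ± 13.2 (SD, n = 4). Neighbours within these 6 overlapped. Replicate 4 was the lowest library for Hist1h2ae (60.97), Hist1h1b (7.86), Hist3h2ba (0), Hist1h2bc (31.1), Hist1h4i (0.166) and Hist1h2ab (4.30), and the highest for Hist1h1c (205), Hist3h2a (139) and Hist1h1e (51.9). It also had the fewest genes above 0, 11384 against 12909 to 13368 in the others. Of these 10 genes, 9 were also among the 10 with the highest mean in the gated libraries.

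**Figure D5:**
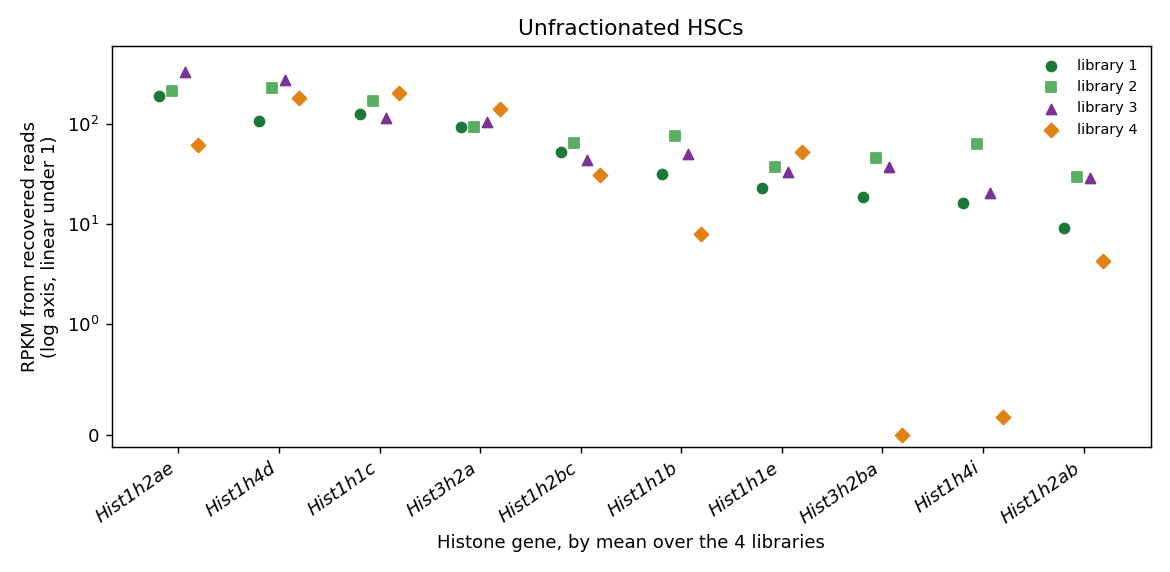
RPKM from recovered reads in each of the 4 unfractionated libraries (symbols) for the 10 histone genes with the highest mean; the axis is logarithmic above 1 and linear below. Library 4 is lowest for Hist1h2ae, Hist1h2bc, Hist1h1b, Hist3h2ba, Hist1h4i and Hist1h2ab and highest for Hist1h1c, Hist3h2a and Hist1h1e.

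A total of 10 histone genes had 0 reads in all 4 unfractionated libraries, and 7 of them have under 20% unique windows, for example Hist1h2ap and Hist1h2ao, which were detected in the gated libraries. Hist1h4b, at 0 in the gated libraries, was not among the 10.

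Genes that make, process and remove histone messages were called at about the share of all genes. Of 21 tested genes of a list for histone mRNA transcription, processing and decay, 5 were higher in High, 2 were lower (Ncbp1 at -0.93 and Srrt at -0.92) and 14 were not called, with a median of -0.09, where 15.6% of all tested genes were higher and 11.7% lower. Srrt overlapped between the groups (adjusted p = 0.0487) and was not called after the length-GC adjustment (-0.71, adjusted p = 0.138), while Ncbp1 still was (-0.78, adjusted p = 0.0188). Slbp, which binds the stem-loops shown above, measured 92.7, 77.2, 107.6 and 137.8 RPKM in High and 44.8, 47.6 and 57.6 in Low. Its groups were apart (log2 1.02, SE 0.20, adjusted p = 0.00241 by limma; 0.65 after the length-GC adjustment).

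Npat, the coactivator of histone gene transcription, measured 2.39, 0.792, 1.302 and 1.55 RPKM in High and 3.29, 3.13 and 1.604 in Low, overlapped and was not called (-0.55, adjusted p = 0.263). Lsm10, a subunit of the U7 particle that directs cleavage after the stem-loop, was at 96.0 to 138.6 RPKM against 43.5 to 77.7 (0.94, adjusted p = 0.00513). Mblac1, a nuclease of histone pre-mRNA, was at 5.49 to 11.4 RPKM against 1.26 to 2.47 (1.59, 0.00351), and Lsm4, a general decay and splicing factor, at 441 to 540 against 289 to 371 (0.65, 0.00267). After the length-GC adjustment, the calls of Slbp and Mblac1 held, and 2 genes of the list were higher in place of 5.

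Histone variants replace the canonical histones at particular sites, and most are made outside replication from tailed messages. Of 11 tested, 7 were higher and none lower (median 0.70), against 15.6% and 11.7% of all tested genes. H2afx, which marks DNA breaks and in dividing cells also makes a stem-loop message, averaged 621 ± 41.1 RPKM in High and 92.9 ± 4.34 in Low (log2 2.73). H2afz, which marks promoters, averaged 779 ± 49.4 and 142 ± 25.5 (2.46), and Cenpa, the H3 of centromeres, 322 ± 6.98 and 45.5 ± 10.6 (2.82). H2afv, a close relative of H2afz, was higher by 1.21.

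Chaperones that carry new histones to DNA included 8 higher and 0 lower of 18 tested (median 0.46), where 15.6% of all tested genes were higher. Asf1b, which hands H3-H4 to the fork, measured 30.6, 44.7, 35.2 and 57.2 RPKM in High and 3.79, 4.11 and 2.17 in Low (log2 3.29, adjusted p = 6.54e-06 by limma). Its paralogue Asf1a was not called (-0.40, adjusted p = 0.151). Hat1, which acetylates new H4, was higher by 1.17, Supt16 of the FACT complex by 1.07 and Chaf1b of CAF-1 by 0.79. In a list of 25 S phase genes, 13 were higher and none lower (median 0.74), against the same 15.6%, with Tk1 at 3.04, Gmnn at 2.30, Pcna at 1.82 and Lig1 at 1.54.

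Marker lists of the sorted cells and of other cells were read in the same libraries. The summed level of 10 HSC sort and stem cell markers was 215 to 306 RPKM in High and 424 to 550 in Low, and 5 of the 10 were lower. The summed level of 8 erythroid markers was 110 to 237 RPKM in High and 69.0 to 102 in Low. In that list 1 of 2 tested genes was higher, a call lost after the length-GC adjustment (adjusted p = 0.203), and 5 of the 8, all under 1 RPKM in every library, had lower means in High. Sums of the 9 myeloid markers were 279 to 406 RPKM against 261 to 264. Of 3 tested, 1 was higher (Lyz2), a call lost after the length-GC adjustment (adjusted p = 0.625 by limma). Sums of the 7 endothelial and stromal markers were 3.13 to 8.06 RPKM against 9.72 to 16.7. Pecam1, the 1 gene of them tested, made up most of these sums (means 3.96 and 12.2 RPKM) and was called lower. Means of Cdh5, Lyve1, Stab2 and Col1a1, all under 1 RPKM, were higher in High. That of Kdr was lower, and Col3a1 was at 0 throughout. For the 6 megakaryocyte markers they were 72.3 to 104.9 RPKM against 55.6 to 68.3, with 0 of 5 tested called, and for the 8 lymphoid markers 2.22 to 3.49 against 0.538 to 1.64, with 5 of the 8 at 0 in all libraries. The 7 hepatocyte markers (59.6 to 75.0 against 53.5 to 77.9 RPKM) and the 6 macrophage markers (4.24 to 13.7 against 0 to 9.18) overlapped, with 0 of 5 and 0 of 2 tested called. The part of these cells in the histone result was not tested.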

How the data were processed

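RNA from 11 libraries of sorted P0 liver HSCs was analysed, grouped by title into FSC-A High (4), FSC-A Low (3) and unfractionated (4). The authors deposited 1 value per RefSeq transcript for the gated libraries (33984), taken as RPKM from the values, since no header names the unit. For the unfractionated libraries the authors deposited a signal per gene (23420 genes), of which 100% became whole reads within 0.01 after multiplying by 1 factor per library. STAR, DESeq2 and mm10 are named, without versions or roles, per the submitters' processing notes. How reads matching several gene copies were counted is not given in the sources used here.

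Gates were compared with limma 3.58.1 (R 4.3.3; moderated with an intensity trend), run on log2(RPKM + 1), so fold changes of low genes are understated. The filter was 1 RPKM in 3 libraries and the threshold an adjusted p of 0.05. The fit was tested on simulated data. Named genes were the 3 highest per class and up to 6 called per class by smallest p, up to 4 called per other list with Slbp and Npat, and the 10 highest in unfractionated HSCs; others that are named were chosen after their values were seen. Members and lists were chosen with earlier results of these data known, and 1 list symbol (Spty2d1) was corrected after the files were read. Alternatives covered pseudocounts, filters, scalings (TMM from edgeR 4.0.16), trends, transcript sums, weights and left-out libraries. Tables used Python 3.11.15.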

Additional observations from a re-analysis of the deposited data

Results flagged for a closer look

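Among 33 groups of 4 libraries of named histone genes, 2 held a library far from the rest, where chance gives about 1 in 20. Hist2h2ac in FSC-A High had 1 low library, replicate 1 at 7.81 RPKM, while the other 3 were at 16.1 to 17.2. Hist2h2be in FSC-A High had 1 high library, replicate 4 at 2.67 RPKM, while the other 3 were at 0.937 to 1.13.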

How the results depend on the processing

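The number of histone genes called higher was 21 and became 7 with a filter at 5 RPKM, where fewer genes are tested, 11 after the length-GC adjustment and 4 of 7 among genes with at least 80% unique windows. Of the 7 called with the filter at 5 RPKM, Hist1h1b, Hist2h2ac and Hist1h2an had no Low library at 5 RPKM. Their highest Low values were 3.96, 4.87 and 2.33 RPKM. That filter therefore fixed their direction, and they also enter its median given below. Leaving out 1 library gave 15 to 19. The number called lower was 1 and became 0 without the filter and 0 among genes with unique windows, and 1 to 2 on leaving out a library (2 without FSC-A Low replicate 2, where Hist1h1c joined). The median log2 difference of 1.39 became 1.91 with a pseudocount of 0.5, 0.51 with 5, 0.45 without the filter, 1.98 with the filter at 5 RPKM and 0.97 after the length-GC adjustment, and lay at 1.36 to 1.48 on leaving out a library. Histone mRNA processing genes called higher fell from 5 to 2 after the length-GC adjustment and to 3 with an expression level trend removed, and were 4 to 6 on leaving out a library. Hist3h2a changed sign when scaled to library totals (-0.013) and after the length-GC adjustment (-0.40). Causes beyond the construction of each alternative were not tested. Of the settings tried on the 23 named histone genes, 407 kept direction and call, 35 lost the call, 4 gained one and 2 changed sign. Same-numbered gated libraries did not deviate together (r = -0.031, 0.059 and 0.000), so numbers were not taken as pairs. A replicate block gave 16 higher, 1 lower and a median of 1.48. The share of all genes called higher is given here for the main fit (15.6%), without the filter (8.6%) and after the length-GC adjustment (9.64%). Counts in the other settings have no such share beside them and cannot be set against all genes. The sum in unfractionated libraries was 606 as deposited against 609 CPM. Levels under about 1 RPKM and copies with shared sequence limit single genes most.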
